A study of Schizosaccharomyces pombe with 4 samples.

Results

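Occupancy of the telomere proteins Rif1 and Taz1 was compared across the fission yeast (Schizosaccharomyces pombe) genome, from 1 array of Myc-tagged Rif1 and 1 array of GFP-tagged Taz1, which are 2 of the 4 arrays of the study. The arrays were chosen by their labels and not by any measured value. Each comes from chromatin immunoprecipitation read on a tiling microarray, in which DNA recovered with an antibody (IP) is labelled red and DNA of the whole-cell extract is labelled green on the same array. The Taz1_GFP array used cells carrying taz1GFP and the GFP antibody ab290, and the Rif1_Myc array used Rif1Myc cells and the c-Myc antibody A14. Both strains are titled as wild type apart from the tag. The other arrays, used here only as further readings that the choice did not draw on, are Taz1_wt (wild-type cells, antibody raised against recombinant Taz1) and Taz1_L593F (the same antibody, cells with the allele taz1l593F, also labelled mut5). All cultures were in logarithmic growth in rich medium (YEA) at 30 °C, were fixed in 3% paraformaldehyde, and gave sheared DNA of 500 to 1000 bp that was amplified by random-primed PCR before labelling. The promoters and integration sites of the tagged genes, and an array of untagged cells with the tag antibodies, were not among the sources used here.

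Taz1 binds the double-stranded repeats of fission yeast telomeres directly and recruits further telomere proteins, among them Rif1. Rif1 also binds within chromosome arms, where it works with protein phosphatase 1 to hold back the firing of replication origins, and Taz1 is known to delay a subset of origins near telomere-like repeats. The sequence GTGGGGG is the core of the motif known for arm binding of Rif1 in this yeast, and GGTTAC is the unit of its telomere repeat.

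DNA is shown at regions whose summit lay between a pair of annotated genes, because motif content was a feature by which the Rif1 and Taz1 regions could be set side by side. The stretches were read from assembly ASM294v3, between the 2 named genes by the annotation of that assembly, 5′ to 3′ on the strand that holds the match. Capitals mark GTGGGGG in the first 7 stretches and GGTTAC in the last 4. The first 4 come from regions of Rif1 alone. They are chrII:4255697-4255756 and chrII:4255758-4255817 on the minus strand, chrI:1294151-1294210 on the minus strand and chrII:3008796-3008855 on the plus strand.
stb3/SPBC1652.02, first: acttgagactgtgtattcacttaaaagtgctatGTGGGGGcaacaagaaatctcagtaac
stb3/SPBC1652.02, second: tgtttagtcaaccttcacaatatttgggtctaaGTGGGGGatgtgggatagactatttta
rga10/SPAC1565.03: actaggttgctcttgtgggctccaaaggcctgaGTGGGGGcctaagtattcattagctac
ubc1/gsf1: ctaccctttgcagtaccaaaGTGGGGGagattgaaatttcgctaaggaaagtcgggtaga
The next 3 come from Rif1 regions that overlapped a Taz1-GFP region, at chrII:3702825-3702884, chrII:2113402-2113461 and chrII:2113507-2113566, all on the plus strand.
puc1/utp4: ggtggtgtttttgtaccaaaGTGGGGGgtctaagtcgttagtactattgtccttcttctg
rga7/mat1-Mi, first: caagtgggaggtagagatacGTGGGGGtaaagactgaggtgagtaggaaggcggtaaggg
rga7/mat1-Mi, second: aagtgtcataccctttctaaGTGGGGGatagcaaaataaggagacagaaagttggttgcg
The last 4 come from regions of Taz1-GFP alone, at chrI:2520353-2520412 (plus), chrI:2521193-2521252 (minus), chrI:1894531-1894590 (plus) and chrI:1894938-1894997 (plus).
gpa2/avl9, first: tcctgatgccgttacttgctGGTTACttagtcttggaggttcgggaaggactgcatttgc
gpa2/avl9, second: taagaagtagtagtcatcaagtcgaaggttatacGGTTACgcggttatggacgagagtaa
arv1/sdh2, first: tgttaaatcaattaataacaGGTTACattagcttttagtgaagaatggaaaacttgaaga
arv1/sdh2, second: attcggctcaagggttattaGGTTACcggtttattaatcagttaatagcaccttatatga

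Every value is the log2 ratio of IP over extract signal, centred on the median of its array, so 0 is the typical tile and 1 is a 2-fold enrichment. The array carries 60-base probes at a spacing of 300 bp, and 41215 chromosome tiles were measured on both arrays. The robust standard deviation over tiles was 0.28 on Taz1_GFP and 0.40 on Rif1_Myc, so a 2-fold threshold lies fewer standard deviations from the centre on Rif1_Myc. Per the file headers, the Rif1_Myc array was read on another scanner than the other 3, and each array was a slide of its own, so scanner, slide, antibody and protein cannot be told apart. With 1 array a group there is no replicate error and no test. An SD printed with a mean is taken over the tiles of that region on 1 array, intervals are 95% exact binomial and cover counting error only, and neighbouring tiles share sheared fragments and are not independent. Positions of regions are those of the array design, and their genome build is not named in the labels or files, so genes were named after the array had been aligned to ASM294v3.

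Most called tiles were called on 1 array only. A tile was called where the running median of 3 tiles reached 2-fold, which held for 510 tiles on Taz1_GFP (1.24% of all) and 876 on Rif1_Myc (2.13%). Both arrays called 98 tiles, 0.238% of all, which were 19.2% of the Taz1-GFP tiles and 11.2% of the Rif1-Myc tiles. Taz1-GFP alone, with Rif1-Myc under 1.5-fold, accounted for 337 tiles (0.818%), and Rif1-Myc alone, by the mirror rule, for 668 (1.62%). Alone names a class by threshold and not the absence of the other protein. A further 75 and 110 tiles were called on Taz1_GFP or Rif1_Myc with the other array between 1.5-fold and 2-fold. The shared tiles were not spread evenly: 60 of the 98 lay in the outer 50 kb of chromosome I, 29 were internal, 5 lay in centromeres and 4 at the left end of chromosome III. Internal here means outside the outer 50 kb of the 3 chromosomes and outside the centromeres.

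At the ends of chromosome I, Rif1 lay inside a broader Taz1 domain. Of the 321 tiles there, 121 were called on Taz1_GFP and 60 on Rif1_Myc, and every one of these 60 was also a Taz1-GFP tile. No tile was called on Rif1_Myc alone, against 53 on Taz1_GFP alone. At the 60 shared tiles the running medians had a median of 2.14 on Taz1_GFP and 1.87 on Rif1_Myc, and Taz1-GFP was the higher at 59. Across all 321 tiles the single-tile values of both arrays had a Pearson correlation of 0.77 and a Spearman correlation of 0.569, as a description over neighbouring tiles of 1 pair of arrays. The same r over all internal tiles was 0.26.

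The Taz1 domain also reached farther in. At the left end of chromosome I the innermost called tile lay 32.7 kb from the end on Taz1_GFP and 20.1 kb on Rif1_Myc, and at the right end the distances were 39.5 kb and 7.96 kb. In the first 10 kb of the left end the median was 2.10 on Taz1_GFP, 1.56 on Rif1_Myc, 2.20 on Taz1_wt and 0.70 on Taz1_L593F. From 10 to 20 kb the medians were 1.64 on Taz1_GFP and 0.46 on Rif1_Myc. At 30 to 40 kb Taz1-GFP stood at 0.44 and Rif1-Myc at −0.12. At the right end Rif1-Myc had medians of 0.90 in the first 10 kb and −0.06 in the next, while Taz1-GFP had 1.79 and 0.65. From 20 to 50 kb the Taz1-GFP bins of the right end stayed between 0.53 and 0.98, and those of Rif1 lay between −0.65 and −0.31. Taz1_wt had 0.36, 0.13 and −0.05 in these 3 bins, below Taz1_GFP in each, so the inner stretch of the right end was higher on Taz1_GFP than on the array made with the Taz1 antibody.

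**Figure D1:**
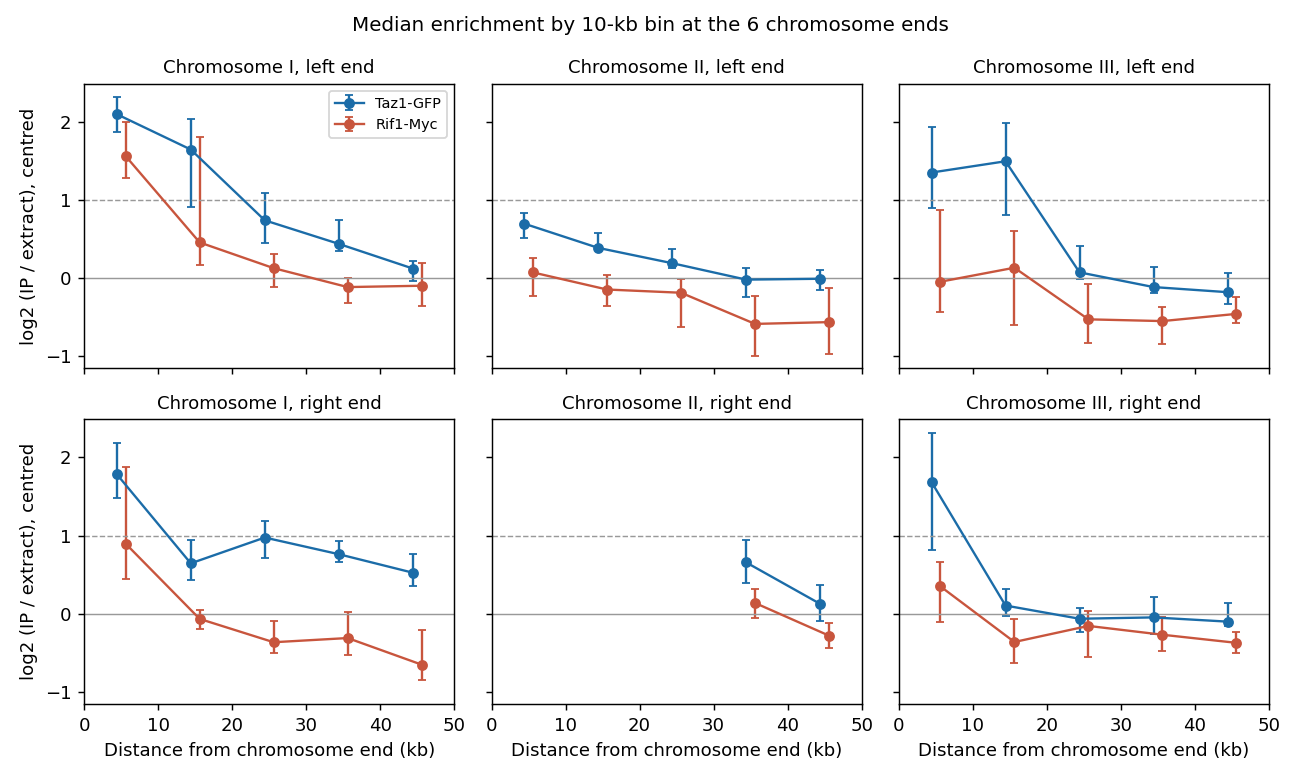
Median centred log2 ratio of IP over extract (points) with quartiles over tiles (bars) in 10-kb bins by distance from each of the 6 chromosome ends, for Taz1-GFP (blue) and Rif1-Myc (red). In each bin Taz1-GFP lies above Rif1-Myc, and the Rif1-Myc medians approach or pass the dashed 2-fold line (log2 of 1) in the first 10 kb of chromosome I only, at 1.56 and 0.90.

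The tallest peaks of the chromosome I ends were common to both proteins. The interval from 16800 to 23400 on the left, between SPAC212.06C and SPAC212.05C, reached a summit of 3.91 on Taz1_GFP and 2.74 on Rif1_Myc, with summits 0.3 kb apart. The outermost region, 0 to 12600, holds the RecQ-type helicase gene tlh1 and averaged 1.99 ± 0.43 on Taz1_GFP and 1.41 ± 0.65 on Rif1_Myc over 42 tiles. The tlh1 gene itself had means of 2.21 on Taz1_GFP, 1.92 on Rif1_Myc, 2.30 on Taz1_wt and 0.77 on Taz1_L593F. On the right, the Taz1-GFP region from 5564100 to 5574900 (summit 3.38, 36 tiles) took in 2 separate Rif1-Myc regions with summits of 2.15 and 1.5.

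The other chromosome ends held Taz1-GFP with little Rif1-Myc. Of 170 tiles at the ends of chromosome II, 9 were called on Taz1_GFP and 0 on Rif1_Myc, and the median of the first 10 kb on the left was 0.70 against 0.07. Tiling of the right end began 30.8 kb from the end of the sequence, and its first bin had 0.66 on Taz1_GFP and 0.14 on Rif1_Myc. Of 277 tiles at the ends of chromosome III, which begin with units of the highly repeated ribosomal DNA, 44 were called on Taz1_GFP and 4 on Rif1_Myc, all 4 of them shared. In the first 10 kb of chromosome III the medians were 1.35 on the left and 1.69 on the right for Taz1_GFP, beside −0.05 and 0.35 for Rif1_Myc. Taz1_wt was at −0.60 and −0.06 in these bins and Taz1_L593F at −0.65 and −0.72. The 4 shared tiles lay between SPRRNA.42 and SPRRNA.47 on the left (3000 to 7500), where the summits were 3.06 on Taz1_GFP and 1.41 on Rif1_Myc. The means over these 15 tiles were 2.23 on Taz1_GFP, 0.78 on Rif1_Myc, 0.39 on Taz1_wt and −0.35 on Taz1_L593F. Among all regions, the lowest differences of Rif1-Myc minus Taz1-GFP lay there, −2.38 between the ribosomal RNA genes SPRRNA.51 and SPRRNA.44 (20400 to 21300, 1.34 ± 0.34 against −1.04 ± 0.16 over 3 tiles) and −2.20 between SPRRNA.47 and SPRRNA.50 (9300 to 10200, 1.33 ± 0.14 against −0.88 ± 0.33 over 3 tiles).

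Probes of the pNSU clones, which carry telomere-near DNA, were high for both proteins. Their median was 4.47 on Taz1_GFP, 3.27 on Rif1_Myc, 3.98 on Taz1_wt and 1.75 on Taz1_L593F. Of 126 probes, 99 were called on Taz1_GFP and 93 on Rif1_Myc, all 93 of these on both arrays, and Taz1-GFP was the higher at each of the 93. The clones were not alike, since the 28 probes of pNSU71 had medians of 0.03 and 0.16. With multi-copy probes left out, the pNSU medians were 0.71 on Taz1_GFP and 0.03 on Rif1_Myc. Mitochondrial probes lay far below the array median, at −1.87 on Taz1_GFP and −3.11 on Rif1_Myc.

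At the centromeres Rif1-Myc split by position more than Taz1-GFP did. The multi-copy repeats that flank the core of chromosomes I, II and III had Rif1-Myc medians of 0.78, 0.63 and 0.76, and Taz1-GFP medians of 0.60, 0.72 and 0.64. Each single-copy core was taken as the longest run of tiles between multi-copy probes, with 36, 48 and 33 tiles. In these cores the Rif1-Myc medians were −1.07, −0.44 and −0.62, whereas those of Taz1-GFP were −0.12, 0.22 and −0.10. Taz1_wt was lower still in the cores, at −1.89, −1.64 and −1.56. Core II was not uniform. Its 48 tiles ran from 1614900 to 1635300, and those of core I from 3766500 to 3777600. Quartiles of Taz1_wt were −2.00 and 0.38 in core II, −2.16 and −1.47 in core I and −1.83 and −1.21 in core III. The medians of core II may thus join unlike tiles and are not like for like with the others. The highest single-tile value of core II was 5.145 on Taz1_GFP, 4.345 on Rif1_Myc and 4.162 on Taz1_wt. These were the highest values of all chromosome tiles on each array, yet no running median in centromere II reached 2-fold on Taz1_GFP or Rif1_Myc. Over 360 centromere tiles, 24 were called on Rif1_Myc and 5 on Taz1_GFP, all 5 shared, in centromeres I and III. The median over all centromere tiles was 0.40 on Taz1_GFP and 0.11 on Rif1_Myc, and the latter was −0.16 with multi-copy probes left out.

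The mating-type interval of chromosome II held 6 of the 29 shared internal tiles. Of its 71 tiles, 13 were called on Taz1_GFP, 12 on Rif1_Myc and 6 on both, with medians of 0.45 and 0.48. Between mat1-Mc, a mating-type gene, and SPBC23G7.10C the Taz1-GFP region (2117100 to 2119800) and the Rif1-Myc region (2117400 to 2120700) shared 8 tiles, with means of 1.07 ± 0.34 and 1.2 ± 0.29 over 12 tiles. Taz1_wt was at 0.28 and Taz1_L593F at 0.26 over the same tiles. Of the 4 mating-type genes with tiles, of 6 listed, mat1-Mi was the highest on Rif1_Myc, at 1.40 beside 0.57 on Taz1_GFP, and mat3-Mi the highest on Taz1_GFP, at 0.96 beside 0.75. Probes of the separate mating-type contig had medians of 0.55 and 0.50.

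Along the arms most tiles called on one array were under the call limit on the other. Even so, the share called on the other array was higher among them than among all internal tiles. Among 40087 internal tiles, 331 were called on Taz1_GFP (0.826%) and 788 on Rif1_Myc (1.97%), and 29 were called on both (0.0723%, interval 0.0485% to 0.104%), which is 8.76% of the Taz1-GFP tiles and 3.68% of the Rif1-Myc tiles. Taz1-GFP alone held 252 tiles (0.629%, interval 0.554% to 0.711%) and Rif1-Myc alone 664 (1.66%, interval 1.53% to 1.79%). Merged within 1 kb, the tiles made 61 internal Taz1-GFP regions, of which 39 were alone, 13 had Rif1-Myc in between and 9 overlapped a Rif1-Myc region. They made 143 internal Rif1-Myc regions, of which 101 were alone, 33 had Taz1-GFP in between and 9 overlapped a Taz1-GFP region. The order of the classes depends on the scale: with both arrays scaled to the same spread, Taz1-GFP alone had 433 tiles in 69 regions and Rif1-Myc alone 344 tiles in 37 regions. The median width was 900 bp for regions of either protein alone.

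**Figure D2:**
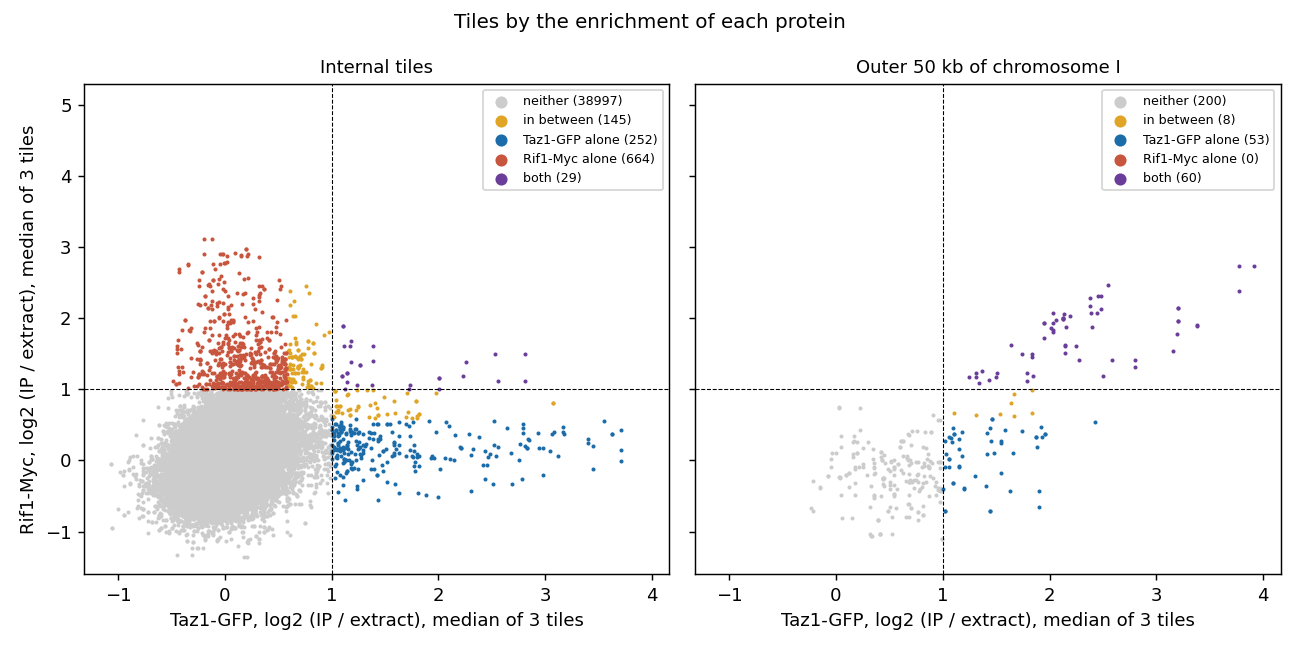
Running median of 3 tiles on Taz1_GFP (horizontal) and Rif1_Myc (vertical), both as centred log2 ratio of IP over extract, for internal tiles (left) and the outer 50 kb of chromosome I (right), coloured by class, with dashed lines at 2-fold. Internal tiles called on both arrays number 29. They are 8.76% of those called on Taz1_GFP, beside 1.97% of all internal tiles called on Rif1_Myc. At the ends of chromosome I all 60 tiles called on Rif1_Myc are also called on Taz1_GFP.

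Regions of one protein alone were also the larger group among the tallest. These counts and those above need a background: 35849 of all 40087 internal tiles were under 1.5-fold on both arrays. A low value on the other array is thus common at any tile. A count of regions alone does not by itself show separation. Of 12 internal Taz1-GFP regions with a summit of at least 4-fold, 7 were alone, 2 were in between and 3 overlapped Rif1-Myc. Of 20 internal Rif1-Myc regions of that height, 12 were alone, 6 were in between and 2 overlapped Taz1-GFP. At a 1.5-fold threshold 335 internal tiles were shared, beside 544 of Taz1-GFP alone and 2089 of Rif1-Myc alone with the other array under 1.2-fold. Counted by regions at that threshold, the shared were the larger group for Taz1-GFP, with 108 shared and 94 alone of 290, while Rif1-Myc had 103 shared and 302 alone of 625. At 3-fold on both arrays, 0 internal tiles were shared, beside 93 of Taz1-GFP alone and 176 of Rif1-Myc alone. The limit for alone had close cases: the region of Taz1-GFP alone nearest to it reached a running median of 0.56 on Rif1_Myc (erf2/SPBC3H7.08C), and the nearest one outside it reached 0.61 (zfs1). For Rif1-Myc the corresponding regions were map4, at 0.58 on Taz1_GFP, and Tf2-1, at 0.59.

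The 10 tallest regions of Taz1-GFP alone lay in intergenic DNA, except the last, in an untranslated region of scr1, a transcriptional repressor gene of glucose repression. The tallest was between erf2, a palmitoyltransferase subunit gene, and SPBC3H7.08C on chromosome II (1866000 to 1873800). It reached 3.71, a 13.1-fold enrichment, and averaged 1.85 ± 0.98 on Taz1_GFP, 0.11 ± 0.23 on Rif1_Myc, 1.28 ± 0.87 on Taz1_wt and 0.09 ± 0.18 on Taz1_L593F over 26 tiles. The running median of Rif1-Myc at the summit was 0.14. Between prl46 and iec1, an INO80 remodeller subunit gene, on chromosome I (4645800 to 4651200), the summit was 3.44 and the means were 2.08 ± 0.76 on Taz1_GFP, −0.10 ± 0.28 on Rif1_Myc and 0.61 ± 0.26 on Taz1_wt over 18 tiles. Between ivn1 and wwm1 on chromosome II (1495800 to 1503300) the summit was 3.40 and the means were 1.85 ± 0.80 and 0.03 ± 0.21 over 25 tiles. Between gap1, which encodes a GTPase-activating protein of Ras, and sds23 on chromosome II (948000 to 951900) the means were 2.40 ± 0.74 and 0.27 ± 0.19 over 13 tiles. These 4 regions thus combined a Taz1-GFP mean of more than 3-fold with a Rif1-Myc mean near the array median. The running median of Rif1-Myc was still 0.47 at the gap1/sds23 summit and reached 0.56 within the erf2 region.

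By region mean, the next of these regions showed some Rif1-Myc in 1 case. The running median of Rif1-Myc also reached 0.51 between cuf1 and rod1. Beside gpa2, a G protein alpha subunit gene of nutrient signalling, and avl9 on chromosome I (2521200 to 2524500), whose telomere units are printed above, Rif1-Myc averaged 0.53 ± 0.16 against 1.91 ± 0.61 on Taz1_GFP over 11 tiles. The region between cuf1, a copper-responsive transcription factor gene, and rod1 had a summit of 2.83 and a difference of Rif1-Myc minus Taz1-GFP of −1.41. The region between mug157 and SPAC1093.07 had a summit of 2.31 and the difference −1.89. Between arv1 and sdh2, a succinate dehydrogenase subunit gene, Taz1-GFP averaged 1.59 ± 0.26 and Rif1-Myc −0.05 ± 0.15 over 5 tiles. The last 2 regions, at tas3/apc15 and scr1, had Taz1_wt means of only 0.22 and 0.24 beside 1.5 and 1.68 on Taz1_GFP.

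The 10 tallest regions of Rif1-Myc alone lay in intergenic DNA in 5 cases and in untranslated regions in the other 5. In the stb3/SPBC1652.02 interval of chromosome II (4253700 to 4260900), where a pair of GTGGGGG matches is printed above, the summit was 2.98, a 7.87-fold enrichment. Means there were 1.84 ± 0.70 on Rif1_Myc, 0.07 ± 0.21 on Taz1_GFP, −0.02 ± 0.25 on Taz1_wt and −0.02 ± 0.18 on Taz1_L593F over 24 tiles. At mug114 on chromosome I (2663400 to 2667000) the means were 2.05 ± 0.82 on Rif1_Myc and 0.16 ± 0.22 on Taz1_GFP over 12 tiles. Between erv41 and tkt1, the transketolase gene, on chromosome II (2585700 to 2589900) they were 1.97 ± 0.60 and −0.06 ± 0.19 over 14 tiles. Means of the 3 Taz1 arrays lay between −0.11 and 0.21 at these regions.

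The highest difference of Rif1-Myc minus Taz1-GFP among all regions was 2.18, between the ubiquitin-conjugating enzyme gene ubc1 and gsf1 on chromosome II (3010200 to 3012300). Rif1-Myc averaged 1.90 ± 0.48 there and Taz1-GFP −0.27 ± 0.15 over 7 tiles. The difference was 1.82 at ayr1. The aldehyde dehydrogenase gene atd1 and cbh1 flank a region (4450800 to 4453800 on chromosome I) with a difference of 1.85 that was not counted as alone, because Taz1-GFP reached a running median of 0.60 in it. The tall regions at SPAC23H4.05C, SPAC644.09 and msi2, and between SPBC713.14C and the squalene epoxidase gene erg1, had Rif1-Myc means from 1.58 to 1.80 and Taz1-GFP means from 0.14 to 0.39. Across the 10, Taz1_wt means lay between −0.18 and 0.23.

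**Figure D3:**
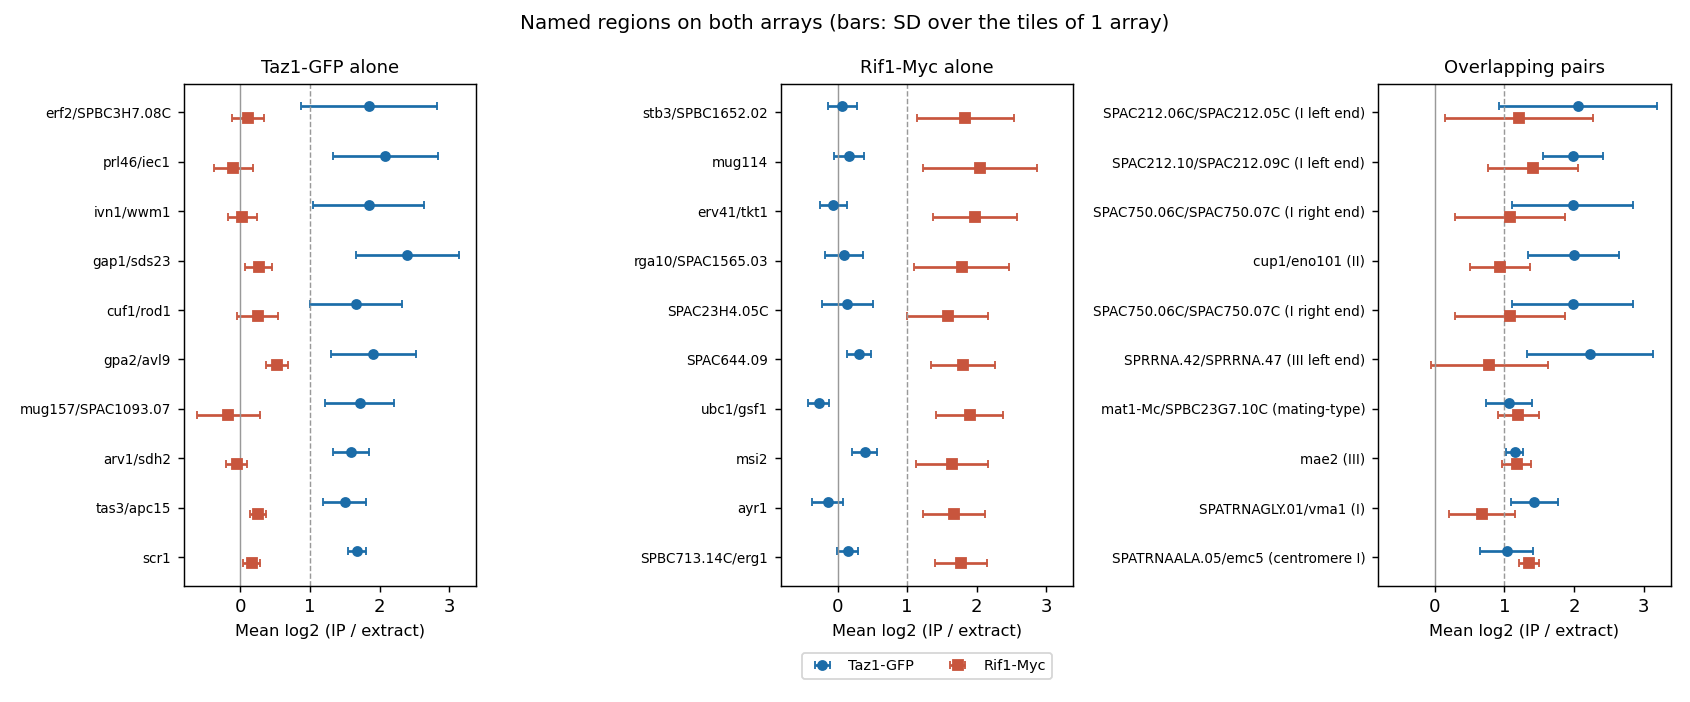
Mean centred log2 ratio of IP over extract on Taz1_GFP (blue circles) and Rif1_Myc (red squares) over the tiles of the 10 tallest internal regions of each protein alone and of the 10 overlapping pairs with the highest lower summit, with bars for the SD over tiles of 1 array. A Taz1-GFP region that met 2 Rif1-Myc regions appears in 2 pairs, and means of the right panel are over the union of both regions.

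The pairs that overlapped inside the chromosomes were 9, and they differed in which protein led. Between cup1 and the enolase gene eno101 on chromosome II, Taz1-GFP had the higher summit, 2.81 against 1.5, with summits 0.3 kb apart and 6 of 13 Taz1-GFP tiles shared. At duf8901/SPAC806.06C on chromosome I the gap was larger, 2.97 against 1.01, and 2 tiles were shared. Rif1-Myc led beside puc1, a cyclin gene, and utp4 on chromosome II, with 2.69 against 1.18, and beside rga7 and mat1-Mi, with 2.45 against 1.11. In these last 2 pairs 2 tiles were shared, and the summits lay 1.5 kb and 1.2 kb apart.

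Summits coincided at the malate genes. In the coding sequence of mae2, the malic enzyme gene, on chromosome III (275700 to 277200) the summits were 1.27 on Taz1_GFP and 1.34 on Rif1_Myc at the same tile, and Taz1_wt averaged 1.52. In mae1, the malate transporter gene, on chromosome I (4907700 to 4908900) both regions covered the same 4 tiles, with means of 1.99 ± 0.83 on Taz1_GFP, 1.17 ± 0.20 on Rif1_Myc and 1.63 on Taz1_wt. The other internal pairs were at SPATRNAGLY.01/vma1 (1.82 on Taz1_GFP and 1.19 on Rif1_Myc) and between the kinase gene fin1 and the cyclin gene pas1 (1.14 and 1.23). Over all 29 shared internal tiles Taz1-GFP was the higher at 15, unlike the ends of chromosome I, where it was the higher at 59 of 60.

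Signal of the second protein at one-protein regions was low but mostly above 0. Over all internal tiles, read singly, the medians were 0.0008 on Rif1_Myc and −0.006 on Taz1_GFP, with upper quartiles of 0.29 and 0.18. Single tiles thus fall above and below 0 about equally often, by the centring. Over the 39 regions of Taz1-GFP alone the Rif1-Myc mean was above 0 in 30, with a median of 0.24. Over the 101 of Rif1-Myc alone the Taz1-GFP mean was above 0 in 79, with a median of 0.17. The median of the other array at the summits was 0.18 for Rif1-Myc and 0.20 for Taz1-GFP, and the choice of the regions holds its running median under 1.5-fold. The highest Taz1-GFP mean in a region of Rif1-Myc alone, 1.64, came from 1 tile at ura4, whose running median was 0.57.

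**Figure D4:**
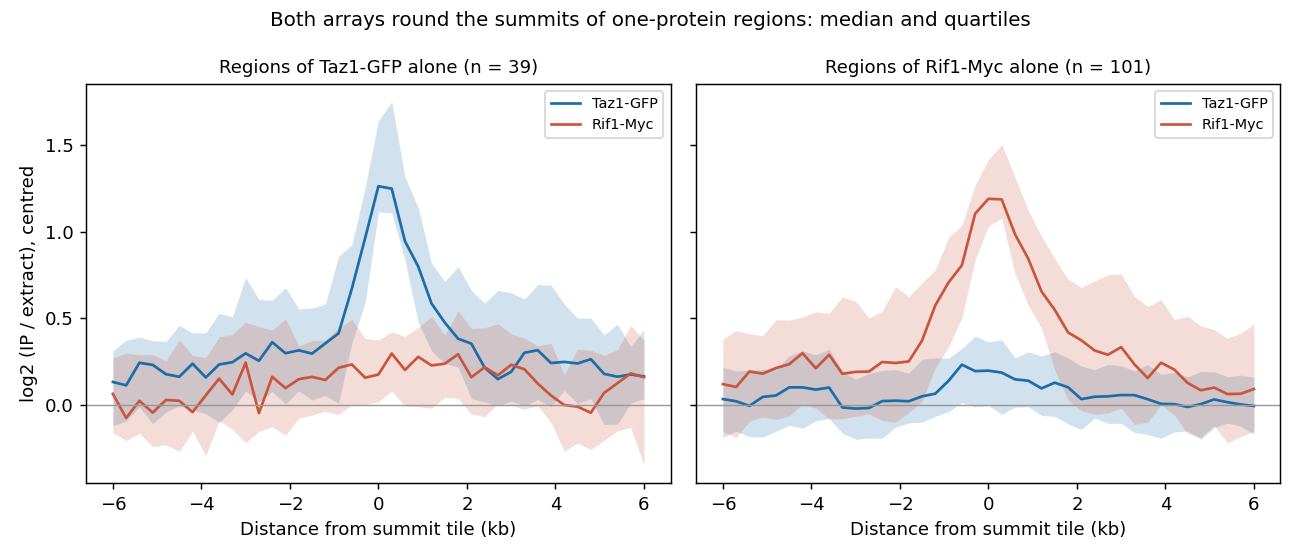
Median centred log2 ratio of IP over extract (lines) and quartiles (bands) by distance in kb from the summit tile, for the 39 internal regions of Taz1-GFP alone (left) and the 101 of Rif1-Myc alone (right). The protein that defined the regions peaks at 1.26 on the left and 1.19 on the right, and the other lies at 0.18 and 0.20 at the summit, both as the choice of regions fixes or limits.

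The Taz1 antibody array gave a reading that the classes did not use. Taz1_wt was above 0 at all 39 regions of Taz1-GFP alone, with a median mean of 0.57, and at least 1.5-fold at 19. At the 101 regions of Rif1-Myc alone its median was 0.09, it was above 0 at 66 and at least 1.5-fold at 5. Of all 40087 internal tiles, read singly and not as region means, 49.4% were above 0 and 2.19% at least 1.5-fold on Taz1_wt. Taz1_L593F had medians of 0.01 and −0.03 at the 2 sets.

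Placement differed between the proteins and with height. The midpoint of the summit tile fell between genes in 27 of 39 regions of Taz1-GFP alone, in an untranslated region in 11 and in a coding exon in 1. Of the 101 summits of Rif1-Myc alone, 63 lay in coding exons, 22 in intergenic DNA, 13 in untranslated regions and 3 in introns. Among all internal tiles, 58.5% were in coding exons and 20.7% intergenic. The Rif1-Myc count joined unlike regions: of the 12 alone with summits of at least 4-fold, 0 lay in coding exons and 6 in intergenic DNA, with a median width of 3750 bp. Of the 80 alone between 2-fold and 3-fold, 61 lay in coding exons, with a median width of 900 bp. Runs at or below −1, called in the same way, numbered 26 on Rif1_Myc and 3 on Taz1_GFP among internal tiles.

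Base composition moved with these classes. Median GC content was 31.7% in regions of Taz1-GFP alone and 39.4% in those of Rif1-Myc alone, beside 36.3% over all internal tiles. Among the regions of Rif1-Myc alone it was 37.3% in those of at least 4-fold and 40.5% in those under 3-fold. Over all chromosome tiles GC content correlated with the log2 ratio at r of −0.193 on Taz1_GFP and 0.283 on Rif1_Myc. With a fit on GC content removed, 26 regions of Taz1-GFP alone and 72 of Rif1-Myc alone were found, 7 regions of each array overlapped, and 19 internal tiles were shared in place of 29. Multi-copy tiles, whose signal may come from several places, were present in 15 of the 101 regions of Rif1-Myc alone, in 14 of its 33 regions in between and in 0 of 39 of Taz1-GFP alone. The share of such tiles among all internal tiles is not given here. Rif1-Myc regions in between included several Tf2 copies, and those alone several wtf genes, each counted as its own region. With multi-copy probes left out, 123 Rif1-Myc regions (94 alone) were found. The part of GC content and copy number in the remaining counts was not tested.

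The motif GTGGGGG set tall Rif1-Myc regions apart from the rest. It was searched on both strands in 1 kb round the summit middle, and 1.91% of all internal windows of that length held it. Of the 20 Rif1-Myc regions of at least 4-fold, 18 held a match (90%, interval 68.3% to 98.8%), of the 13 between 3-fold and 4-fold 9 did (69.2%), and of the 110 below that 13 did (11.8%, interval 6.45% to 19.4%). By class the shares were alike, with 27 of 101 regions of Rif1-Myc alone (26.7%), 10 of 33 in between (30.3%) and 3 of 9 overlapping ones (33.3%). Of 39 regions of Taz1-GFP alone, 1 held a match (2.56%, interval 0.0649% to 13.5%), the region between cuf1 and rod1. The 2 tall Rif1-Myc regions with no match in the window were at SPAC644.09 and cyc3/ste11. The 5020-bp interval between cyc3 and ste11 did hold 2 matches, outside the window.

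Copies often came in pairs, as in the stretches beside stb3. Rif1-Myc regions with at least 2 matches numbered 21, had a median summit of 2.20 and held neighbouring copies 42 to 231 bp apart (median 88 bp), all on the same strand in 13. The 19 regions with 1 match had a median summit of 1.39, and the 103 with none 1.16. Read from the sequence, 25 internal tiles held at least 2 copies, and 20 of them were called on Rif1_Myc (80%, interval 59.3% to 93.2%) and 0 on Taz1_GFP, with medians of 1.71 and 0.02. Of 235 tiles with at least 1 copy, 50 were called on Rif1_Myc (21.3%) and 3 on Taz1_GFP (1.28%). Their median GC content was 38.7%, above the 36.3% of all internal tiles.

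The telomere unit GGTTAC separated the proteins less. It lay in 22.4% of all internal windows, in 13 of 39 regions of Taz1-GFP alone (33.3%, interval 19.1% to 50.2%) and in 31 of 101 of Rif1-Myc alone (30.7%, interval 21.9% to 40.7%). Of the 12 Taz1-GFP regions of at least 4-fold, 6 held it, including those beside gap1, cuf1 and gpa2. The 7-base form GGTTACA, which contains the unit, was in 7.93% of all windows, in 3 of 39 (7.69%) and in 15 of 101 (14.9%, interval 8.56% to 23.3%). Read from the sequence, 2959 internal tiles held GGTTAC, and 27 of them were called on Taz1_GFP (0.912%) and 78 on Rif1_Myc (2.64%). Of 997 tiles with GGTTACA, 8 were called on Taz1_GFP (0.802%) and 39 on Rif1_Myc (3.91%). Among all internal tiles the shares were 0.826% and 1.97%, so tiles with the unit were called on Taz1_GFP about as often as any. The 3 tallest regions of Taz1-GFP alone, at erf2, iec1 and ivn1, held no GGTTAC within the window.

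**Figure D5:**
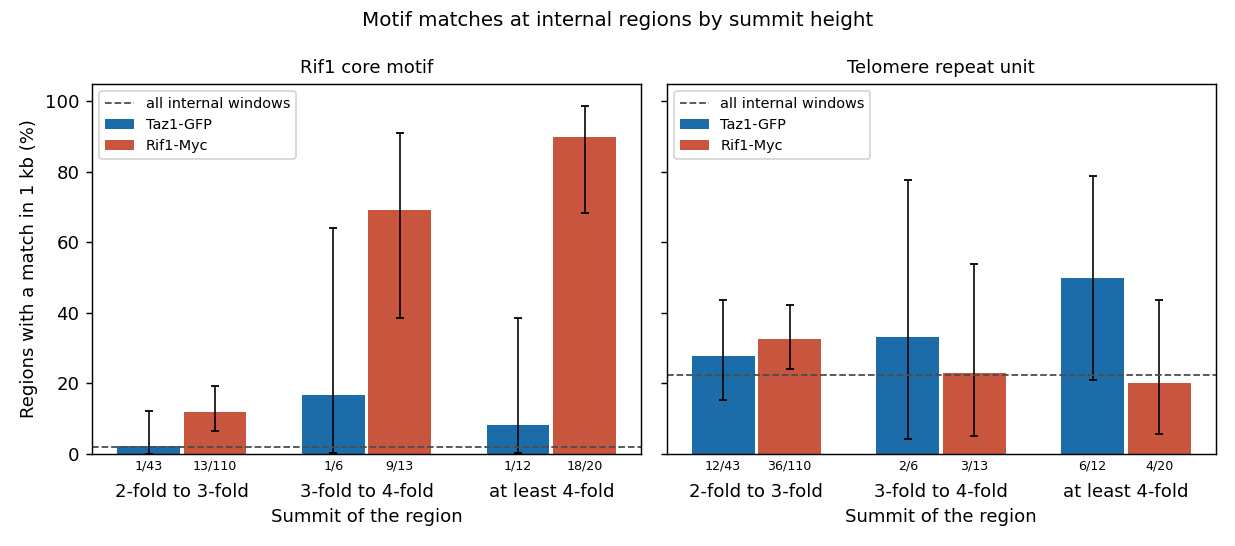
Share of internal regions with at least 1 match within 1 kb round the summit, by summit height, for Taz1-GFP (blue) and Rif1-Myc (red), with exact 95% binomial intervals as bars, counts under the bars and the share of all internal windows as a dashed line. The left panel shows the core motif of Rif1, present at 18 of 20 Rif1-Myc regions of at least 4-fold, and the right panel the telomere repeat unit, present at 6 of 12 Taz1-GFP regions of that height.

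Distances between regions of the proteins were counted with overlapping and touching regions at 0 kb. Regions were measured from their full width (median 900 bp on Taz1_GFP and 1200 bp on Rif1_Myc) and tiles from 300 bp. Wider intervals come near another region more often by construction, and the shares were not matched for width. Of 61 internal Taz1-GFP regions, 20 lay within 5 kb of a Rif1-Myc region (32.8%), 10 of them at 0 kb, and 12.3% of all internal tiles lay within 5 kb and 2.68% at 0 kb. Of 143 Rif1-Myc regions, 21 lay within 5 kb of a Taz1-GFP region (14.7%), 10 of them at 0 kb, against 5.37% and 1.15% of all internal tiles. Median distances to the nearest region of the other protein were 21.6 kb from Taz1-GFP and 62.1 kb from Rif1-Myc regions, and from all internal tiles 31.5 kb and 69.9 kb. Away from called tiles, at 35849 internal tiles under 1.5-fold on both arrays, the single-tile values correlated with r of 0.193. The source of this correlation was not tested.

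Gene classes were read with 500 bp on both sides of each gene. A gene was called where its mean over these tiles reached 2-fold, so a gene not called may still hold called tiles. Over 5460 genes, 43 averaged at least 2-fold on Taz1_GFP (0.788%), 63 on Rif1_Myc (1.15%) and 5 on both, and the medians of all genes were 0.02 and −0.02. The 25 genes of carbon metabolism and glycolysis had a median of 0.31 on Rif1_Myc and 0.01 on Taz1_GFP, and 3 were called on Rif1_Myc and 0 on Taz1_GFP. The highest of them on Rif1_Myc was tkt1, at 1.31 beside 0.02 on Taz1_GFP, and the lowest was the enolase gene eno102, at −0.60 beside −0.20. The highest on Taz1_GFP was mae1, at 0.93 beside 0.66. With the GC fit removed the Rif1-Myc median of the list was 0.06.

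Hexose transporter genes had medians of 0.51 on Rif1_Myc and 0.26 on Taz1_GFP over 8 genes, led on both arrays by ght2 (0.92 and 0.46). No gene mean of this list reached 2-fold, but Rif1-Myc regions had summits in ght2 (1.38), ght5 (1.36) and ght8 (1.47). The 13 measured chaperone genes had 0.15 and −0.23, and the 17 genes of cAMP and Ras signalling 0.02 and 0.08, with gap1 the highest on Taz1_GFP at 0.81 beside 0.06 on Rif1_Myc. Among 10 histone genes pht1, which encodes the variant H2A.Z, was at once the highest on Taz1_GFP, at 0.88, and the lowest on Rif1_Myc, at −0.14. Taz1_wt was at 0.68 at pht1. The 11 measured meiotic genes had medians of 0.00 on Rif1_Myc and 0.08 on Taz1_GFP, led on both by the regulator gene ste11 (0.51 and 0.63).

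Genes of small RNAs and of ribosomal proteins were read in the same way. The 170 measured tRNA genes had a median of 0.35 on Taz1_GFP and 0.07 on Rif1_Myc, with 3 and 2 called and none on both. The highest on Taz1_GFP was SPBTRNAGLU.08, at 1.21 beside 0.15 on Rif1_Myc. The highest of this list on Rif1_Myc was scn1, at 1.82 beside 0.13. The 36 5S ribosomal RNA genes had medians of 0.31 and 0.27, and SPRRNA.11 alone was called, on Rif1_Myc, at 2.05 beside 0.29 on Taz1_GFP. The 131 ribosomal protein genes had medians of 0.07 on Taz1_GFP and 0.24 on Rif1_Myc, and the 66 snoRNA genes 0.15 and 0.09, with none called. With the normexp background correction the Rif1_Myc medians were below 0, at −0.26 for tRNA, −0.08 for 5S and −0.06 for snoRNA genes.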

How the data were processed

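IP and extract DNA of 4 strains were read on 4 arrays, 1 a group. Per the file headers, the scans were quantified by Agilent Feature Extraction (version 11.5.1.1), and the deposited processed signal of each channel is an intensity, background-subtracted and dye-normalized. The deposited series matrix holds a log2 ratio of the same signals and served as an alternative. The processed signals of Taz1_GFP carry 3 significant digits, those of the other arrays 7.

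The log2 of red over green processed signal was centred on the median of the non-control probes of its array, with outlier spots left out (31 on Taz1_GFP, 9 on Rif1_Myc), without loess or quantile steps. Tiles were registered on ASM294v3 in 8 segments by the correlation of extract signal with GC content, and 126 of 126 windows lay within 300 bp of their segment's shift. Runs called on the running median of 3 tiles were merged within 1 kb. Region calling was checked for recovery on simulated data, with peaks of 3-fold and 4-fold, wider than the median region, in independent noise. That check did not cover regions under 3-fold, narrower ones or the correlation of neighbouring tiles. The members, lists and rules were chosen with earlier results of these data known. Regions were named by rule: the 10 tallest of each class and the 5 highest and lowest differences. Gene lists were named by their highest and lowest members. Python 3.11.15, R 4.3.3 and limma 3.58.1 (normexp, loess) were used. Genes with no tile were left out.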

Additional observations from a re-analysis of the deposited data

How the results depend on the processing

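No paired analysis was possible because each group held 1 array, and no array could be left out. The reported internal counts are 29 shared tiles, 252 of Taz1-GFP alone and 664 of Rif1-Myc alone, 61 Taz1-GFP regions (39 alone), 143 Rif1-Myc regions (101 alone) and 9 shared on each array; counts within 1.5 times of these are not repeated. With both arrays brought to the mean of their median absolute deviations (MAD), the tiles alone were 433 and 344, the regions 99 (69 alone) and 79 (37 alone). At 1.5-fold the tiles were 335, 544 and 2089, and the regions 290 (94 alone, 108 shared) and 625 (302 alone, 103 shared). At 3-fold they were 0, 93 and 176, and 18 (10 alone) and 33 (25 alone), with 0 shared. With the top 1% of tiles of each array, 13 tiles were shared, 330 were Rif1-Myc alone, and 5 regions were shared of 61 Rif1-Myc regions (48 alone). Normexp gave 478 tiles of Taz1-GFP alone and 123 Taz1-GFP regions (62 alone). Loess gave 12 shared tiles, 403 of Rif1-Myc alone, and 5 shared regions of 64 Rif1-Myc regions (50 alone). Without the running median the regions were 117 (65 alone) and 266 (193 alone), with 20 shared on each array. Removal of the GC fit left 19 shared tiles. The median of the first 10 kb of chromosome I ends, 2.0 on Taz1_GFP and 1.43 on Rif1_Myc, became 2.46 on Taz1_GFP with MAD scaling, 2.37 with normexp and 1.67 with loess, which gave 0.90 on Rif1_Myc. The Rif1-Myc centromere median turned to −0.14 with normexp, −0.0822 with loess and −0.16 without multi-copy probes. The pNSU medians of Taz1_GFP were 5.48 with MAD scaling, 5.37 with normexp and 0.71 without multi-copy probes, and those of Rif1_Myc 2.76 with MAD scaling, 2.56 with loess and 0.0321 without multi-copy probes. Mitochondrial medians of Taz1_GFP were −2.29 with MAD scaling or loess and −2.24 with normexp, and those of Rif1_Myc −2.62, −3.84 and −4.02 with MAD scaling, loess and normexp. With an end width of 20 kb the medians of chromosome I ends were 1.64 on Taz1_GFP and 0.83 on Rif1_Myc, and those of Taz1_GFP 0.58 on II and 0.89 on III; with 100 kb Taz1_GFP had 0.28 on I. The share of Rif1-Myc regions alone with GGTTAC was 18.8% in 500 bp and 43.6% in 2 kb, beside 11.9% and 39.8% of all internal windows. That of Taz1-GFP regions alone with GTGGGGG was 0% in 500 bp, beside 0.955% of all internal windows. With normexp the Rif1_Myc gene medians turned to −0.0768 for 5S, −0.263 for tRNA, −0.0589 for snoRNA and −0.0645 for cAMP and Ras signalling genes, and with gene bodies alone the Taz1_GFP median of carbon metabolism genes turned to −0.0184. The Rif1_Myc median of meiotic genes, −0.00263, turned to 0.0507 with the GC fit removed. The causes of these shifts were not tested, except that thresholds and windows change the counts by construction. The other alternatives (series matrix values, outlier spots kept, dim spots left out, no merging, a stricter overlap) left the tile and region counts within 1.5 times of those reported. Gene bodies alone were used for gene medians only. Signal was well above background at all but 1 probe of Taz1_GFP and 5 of Rif1_Myc.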
